A study of Homo sapiens with 3 samples.

Results

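The genes described here are 46 genes of glycolysis and of the transcriptional response to low oxygen. The list covers oxygen sensing, glucose uptake, each step from glucose to lactate, the kinases that hold back pyruvate oxidation, further hypoxia-induced genes and gluconeogenesis. Of the 46, 43 had at least 1 probe set annotated to that gene alone, out of 19775 such genes on the array, and SLC16A1, SLC16A3 and CA9 were not analysed here. The 43 genes had 97 probe sets, 28 genes having several and 15 having 1, and the probe set with the highest mean signal stood for its gene.

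The RNA came from a human line of metastatic hepatocellular carcinoma, MHCC97Low, and from sublines derived from it. The groups were the cisplatin-resistant subline MHCC97L/CisR (CisR below), the doxorubicin-resistant subline MHCC97L/DoxR (DoxR) and the parental line, with 1 array each. All were grown in DMEM with serum and received no treatment before RNA extraction, and whether a subline is 1 clone or a pool is not stated in the labels. Cisplatin crosslinks DNA, and the anthracycline doxorubicin traps topoisomerase II on it. With 1 array per line there was no test, and the spread between cultures is unknown for every difference below. The values are MAS5 signals on human U133 Plus 2.0 arrays, a linear brightness per probe set, and the number of arrays limits their precision.

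Glycolysis splits glucose into pyruvate in the cytosol, and lactate dehydrogenase turns the pyruvate into lactate when it is not passed to the mitochondria. When oxygen is low, the prolyl hydroxylases of the EGLN family stop marking the HIF alpha subunits for degradation. The stabilised HIF then binds a short DNA element (core ACGTG or GCGTG) beside genes of glucose uptake, glycolysis, angiogenesis and matrix modification. HIF1A and EPAS1 are controlled mainly as proteins, so their RNA is not a measure of HIF activity. Hepatocytes can also run the pathway backwards, with PCK1, FBP1 and G6PC1 as characteristic enzymes of gluconeogenesis, whereas liver tumours commonly use glycolytic isozymes.

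Median signal was 79.2 in the CisR, 73.3 in the DoxR and 78.5 in the parental array, and between 11872 and 12104 genes lay above the floor, the median of all values (76.9). Values under the floor were raised to it. The words higher and lower, used alone, mean a difference of at least 2-fold, and a fold given as "at least" has 1 side at the floor. Of 12 measured liver markers, APOA1 was at or under the floor on all 3 arrays. The other 11 included 8 lower and 1 higher in the CisR array and 3 lower and 2 higher in the DoxR array, each against parental. Their summed signal was 62210 (CisR), 69562 (DoxR) and 68227 (parental), most of it from KRT8 and KRT18. Of 13 measured markers of leukocytes, endothelium and fibroblasts, 7 were at or under the floor on all 3 arrays, among them PTPRC, CDH5, VWF and COL3A1. Others were above it on every array. The endothelial markers PECAM1 and KDR had 801.6 and 284.9 (CisR), 827.4 and 189.8 (DoxR) and 1052 and 199.7 (parental). The fibroblast marker COL1A1 had 511.1 (CisR), 242.3 (DoxR) and 308.8 (parental). CD3E and DCN lay near the floor. The summed fibroblast signal was 3267 (CisR), 1520 (DoxR) and 692.1 (parental), most of it from LUM in both sublines. The erythroid gene HBB had 117.0 (CisR), 150.5 (DoxR) and 153.6 (parental). The part of these markers in the results below was not tested.

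Most of the glycolysis and hypoxia genes lay close to parental in both sublines. In RNA from a whole culture, fewer cells that express a gene and less RNA per cell cannot be told apart. Of the 43, 37 were above the floor on at least 1 array and were compared, and 6 were at or under it on every array. In the CisR array 0 of 37 passed 2-fold, where 5.40% of all compared genes did. In the DoxR array ANGPTL4 and PCK2 were higher and ENO2 was lower than parental, 3 of 37, where 5.75% of all compared genes passed 2-fold. Set against the CisR array, the DoxR array had 1 of 37 past 2-fold, FBP1, which was lower, beside 6.37% of all compared genes. These counts are of 0 to 3 genes.

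At a smaller size of 1.5-fold, 5 of the 37 were above and 0 below parental in the CisR array, where 9.29% of all genes were above and 8.26% below. In the DoxR array 4 were above and 2 below, beside 9.10% and 8.62% of all genes. Between the sublines 3 were above and 4 below in the DoxR array, beside 9.16% and 9.91%.

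The median log2 difference from parental was 0.04 over the 37 genes and 0.02 over all genes in the CisR array. In the DoxR array it was 0.14 over the 37 genes and 0.00 over all genes. The median size of the difference, whatever its sign, was 0.22 and 0.25 for the 37 genes and for all genes in the CisR array, and 0.30 and 0.25 in the DoxR array. Both comparisons share the parental array, so a high or low parental value of a gene moves its difference the same way in both.

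**Figure D1:**
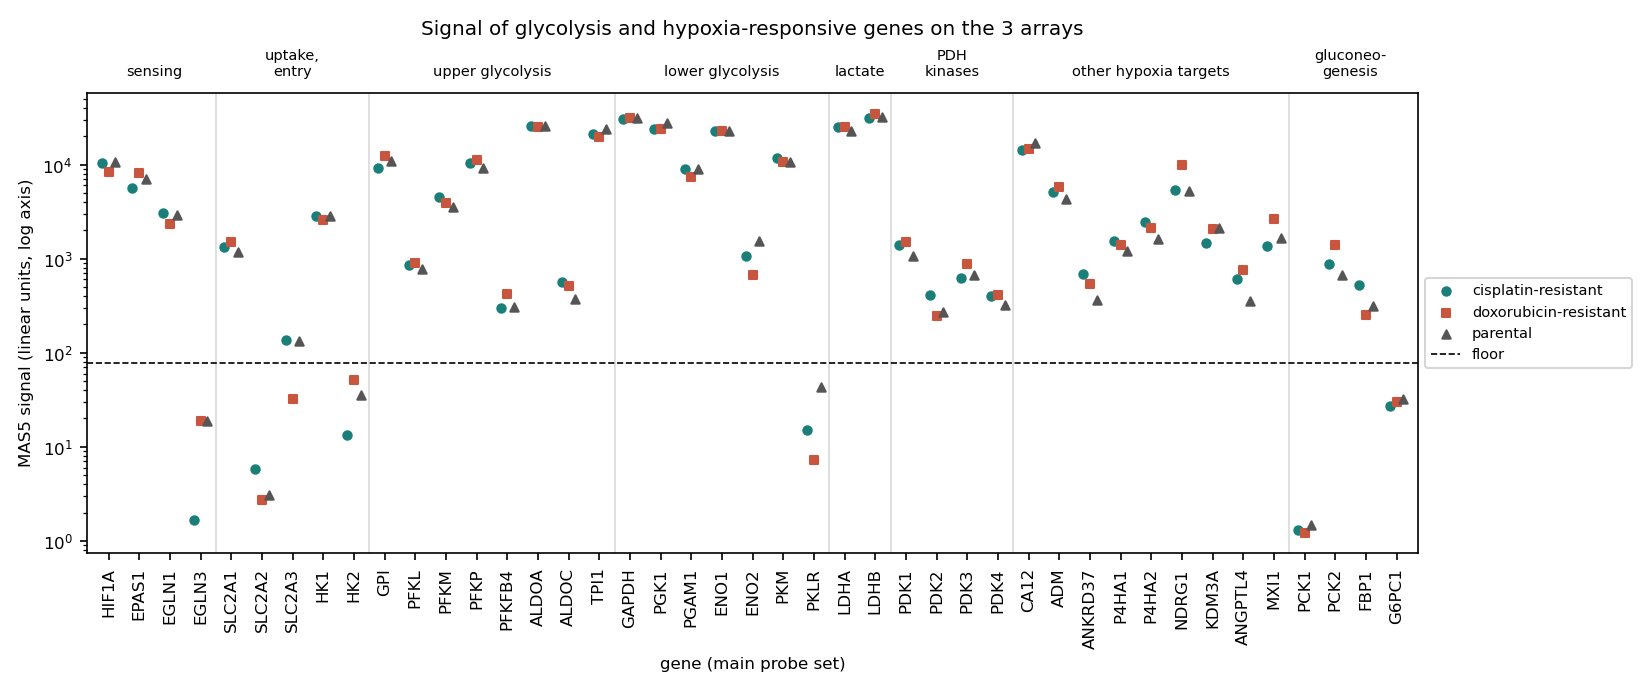
MAS5 signal (log axis) of the main probe set of 43 genes on the CisR (circles), DoxR (squares) and parental (triangles) arrays, in the order of their roles. The 3 symbols of most genes lie at similar heights, and 6 genes, among them HK2 and PCK1, lie under the floor (dashed line, 76.9) on every array.

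**Figure D2:**
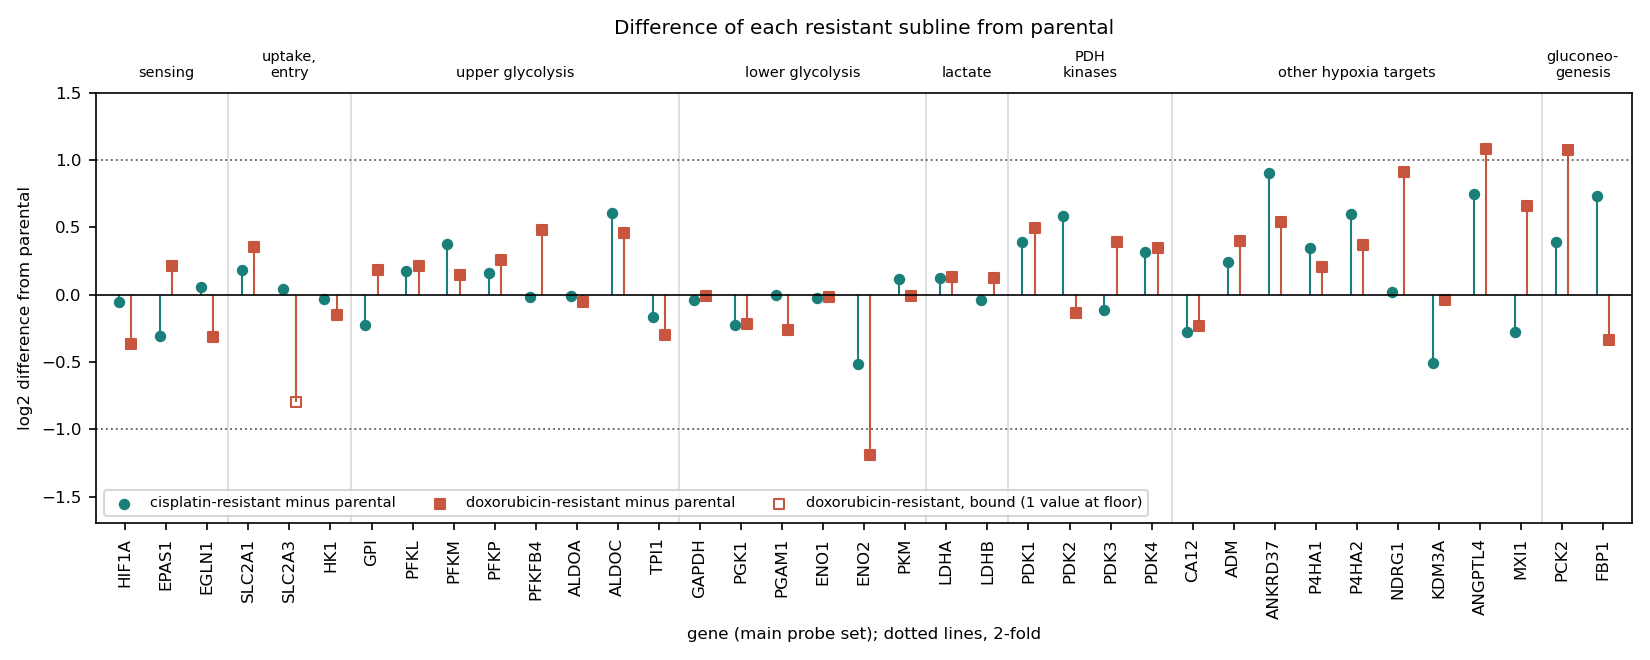
Log2 difference from parental of the 37 compared genes in the CisR (circles) and DoxR (squares) arrays, with dotted lines at 2-fold and an open symbol for a bound. ANGPTL4, PCK2 and ENO2 pass a dotted line in the DoxR array, and no gene does in the CisR array.

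The DNA just upstream of the genes past 2-fold, and of ANKRD37, was searched for ACGTG, called the core below. ANKRD37 had the largest difference in the CisR array by main probe sets. The GCGTG form of the HIF element was not searched. Each sequence is the 250 bases before the transcription start in RefSeq (GRCh38.p14), written 5′ to 3′ on the gene's strand, with capitals for ACGTG or its reverse complement CACGT. The windows are chr19:8363905-8364154 (plus strand) for ANGPTL4, chr14:24094061-24094310 (plus) for PCK2, chr12:6914330-6914579 (plus) for ENO2, chr9:94639519-94639768 (minus) for FBP1 and chr4:185396591-185396840 (plus) for ANKRD37.
ANGPTL4: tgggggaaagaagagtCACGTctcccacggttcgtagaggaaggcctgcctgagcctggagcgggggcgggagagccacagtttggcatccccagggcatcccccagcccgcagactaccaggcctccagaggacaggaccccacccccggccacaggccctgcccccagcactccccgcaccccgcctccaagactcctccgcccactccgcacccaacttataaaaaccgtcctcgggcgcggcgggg
PCK2: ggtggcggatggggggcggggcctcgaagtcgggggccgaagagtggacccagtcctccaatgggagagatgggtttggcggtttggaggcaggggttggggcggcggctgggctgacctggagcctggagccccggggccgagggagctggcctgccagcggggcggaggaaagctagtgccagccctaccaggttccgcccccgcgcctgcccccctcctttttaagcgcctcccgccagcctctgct
ENO2: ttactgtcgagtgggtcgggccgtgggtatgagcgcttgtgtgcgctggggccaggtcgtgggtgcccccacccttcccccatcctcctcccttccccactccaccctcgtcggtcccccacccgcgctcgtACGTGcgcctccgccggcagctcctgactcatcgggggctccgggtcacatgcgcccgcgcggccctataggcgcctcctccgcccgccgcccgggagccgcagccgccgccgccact
FBP1: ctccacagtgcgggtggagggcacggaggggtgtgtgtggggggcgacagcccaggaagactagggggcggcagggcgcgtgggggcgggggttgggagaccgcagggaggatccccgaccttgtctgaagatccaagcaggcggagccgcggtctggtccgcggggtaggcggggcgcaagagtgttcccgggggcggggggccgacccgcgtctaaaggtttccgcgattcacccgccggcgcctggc
ANKRD37: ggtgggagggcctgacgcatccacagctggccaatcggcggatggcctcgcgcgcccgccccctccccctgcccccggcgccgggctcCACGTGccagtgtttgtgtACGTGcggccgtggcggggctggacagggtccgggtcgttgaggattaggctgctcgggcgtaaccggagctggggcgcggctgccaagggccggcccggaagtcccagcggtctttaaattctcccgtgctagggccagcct

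ANKRD37 has 3 matches, of which 2 are the overlapping strands of CACGTG. ANGPTL4 and ENO2 have 1 each, and PCK2 and FBP1 have no match to ACGTG in this window. Of the 42 listed genes with a promoter entry, 23 had the core on either strand in at least 1 window. Among the 35 compared genes with an entry the share was 51.4%, against 28.3% of 10474 compared genes of the arrays. Genes with several start sites have more chances of a match. Over genes with a single window the core was present for 10 of 24 listed genes (41.7%) and for 23.7% of 7462 genes. The listed genes' windows also had more guanine and cytosine, with a median of 70.6% and 65.2% in the same sets. A match describes letters only. ANGPTL4 and ENO2, which differed from parental in opposite directions in the DoxR array, both carry the core.

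HIF1A, EPAS1 and EGLN1 differed by at most 0.53 in log2 between any 2 lines, by their main probe sets. HIF1A, the alpha subunit of HIF-1, had signals of 10375 in the CisR, 8353 in the DoxR and 10753 in the parental array, with log2 differences from parental of -0.05 (CisR) and -0.36 (DoxR). EPAS1, which encodes HIF-2 alpha, had 5593 (CisR), 8057 (DoxR) and 6937 (parental), so it lay below parental in the CisR array (-0.31) and above it in the DoxR array (0.22). A dimmer probe set of EPAS1 gave -0.05 in the DoxR array, so its direction there is not settled. EGLN1, the main prolyl hydroxylase that marks HIF alpha for degradation, had 3032 (CisR), 2353 (DoxR) and 2922 (parental). Its other probe sets above the floor gave differences of 0.35 and 0.69 in the CisR array and of -0.22 and 0.02 in the DoxR array. Between the sublines, all 3 EGLN1 probe sets above the floor were below CisR in the DoxR array (-0.67 to -0.37). EGLN3, a hydroxylase that is itself induced by hypoxia in many cells, was under the floor in both of its probe sets on all 3 arrays, with a highest signal of 19.0.

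Of the genes for glucose entry, SLC2A1 and HK1 were above the floor on every array. SLC2A1 (GLUT1), the widely expressed glucose transporter, had 1332 in the CisR, 1503 in the DoxR and 1175 in the parental array, 1.13-fold (CisR) and 1.28-fold (DoxR) above parental. A dimmer probe set of SLC2A1 pointed the other way, with 62.0 (CisR), 86.8 (DoxR) and 108.3 (parental), so its direction is not settled. HK1, the hexokinase found in most tissues, had 2805 (CisR), 2571 (DoxR) and 2862 (parental) and lay 1.02-fold (CisR) and 1.11-fold (DoxR) below parental.

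HK2, the inducible hexokinase of many tumours, was at or under the floor in all 3 of its probe sets on all 3 arrays, with 13.2 in the CisR, 51.0 in the DoxR and 35.2 in the parental array by the brightest. SLC2A2 (GLUT2), the transporter of hepatocytes, had signals of 2.71 to 5.81. A signal under the floor does not show that a transcript is absent. SLC2A3 (GLUT3), a high-affinity transporter, had 137.5 in the CisR, 32.3 in the DoxR and 133.9 in the parental array. It was thus at least 1.74-fold lower in the DoxR array than in parental. Its other probe sets were under the floor on every array, and those shared with SLC2A14 were not used.

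By their main probe sets, the enzymes of upper glycolysis differed from parental by at most 1.52-fold. The 8 genes had median log2 differences of 0.07 in the CisR and 0.20 in the DoxR array. None passed 2-fold by these probe sets, beside 5.40% (CisR) and 5.75% (DoxR) of all compared genes. PFKP, the platelet isoform of phosphofructokinase, had 10363 in the CisR, 11090 in the DoxR and 9288 in the parental array. PFKFB4, a bifunctional enzyme that sets the level of the phosphofructokinase activator fructose 2,6-bisphosphate, had 299.7 (CisR), 422.1 (DoxR) and 302.6 (parental), 1.40-fold above parental in the DoxR array. ALDOA, the main aldolase outside liver, had 25556 (CisR), 24831 (DoxR) and 25769 (parental), a range of 1.04-fold. ALDOC, the brain-type aldolase and a known hypoxia target, had 560.9 (CisR), 508.1 (DoxR) and 368.8 (parental), which put it 1.52-fold (CisR) and 1.38-fold (DoxR) above parental. GPI, PFKL and PFKM had differences between -0.22 and 0.38 across both sublines by the same probe sets, and a second probe set of PFKL gave 0.78 (CisR) and 0.34 (DoxR).

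TPI1, which interconverts the triose phosphates, gave different answers by probe set. Its brightest probe set had 21297 in the CisR, 19439 in the DoxR and 23916 in the parental array, with log2 differences of -0.17 (CisR) and -0.30 (DoxR). That probe set carries the suffix _x_at, which marks probes that can bind other transcripts. The dimmer probe set with the plain suffix _at had 438.3 (CisR), 303.9 (DoxR) and 760.4 (parental), with log2 differences of -0.79 (CisR) and -1.32 (DoxR), so TPI1 was past 2-fold lower in the DoxR array by that probe set alone. All 3 probe sets pointed downwards in both sublines. Every probe set used for ALDOA, GAPDH and LDHB also carries the suffix _x_at.

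In lower glycolysis the abundant isozymes were near parental by their main probe sets, and the neuronal enolase ENO2 was lower in the DoxR array. All 6 compared genes of this part lay below parental in the DoxR array, where 6248 of 12599 genes did. Their median log2 difference there was -0.12. GAPDH, the dehydrogenase of the payoff phase, had 30658 in the CisR, 31262 in the DoxR and 31482 in the parental array. ENO1, the common enolase, had 22550 (CisR), 22745 (DoxR) and 22977 (parental), and PKM, the pyruvate kinase of most non-liver tissues, had 11599 (CisR), 10627 (DoxR) and 10676 (parental). A dimmer PKM probe set gave 0.02 (CisR) and -0.48 (DoxR). PKM probe sets on this array were read per gene, so its splice forms were not separated. PGAM1, which moves the phosphate of phosphoglycerate, differed by 0.00 (CisR) and -0.27 (DoxR). PKLR, the pyruvate kinase of hepatocytes, was under the floor in all 3 probe sets on every array, with signals of at most 43.3.

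ENO2 had a signal of 1070 in the CisR, 667.8 in the DoxR and 1526 in the parental array, by its only probe set. It was 2.29-fold lower in the DoxR array and 1.43-fold below parental in the CisR array. ENO2 is also induced by hypoxia in many cells, and it lay below parental in the DoxR array. There 7 of 9 other hypoxia-responsive members and 22 of 35 further hypoxia targets lay above parental, beside 6351 of 12599 compared genes.

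PGK1, which makes the first ATP of the payoff phase, had 23608 in the CisR, 23787 in the DoxR and 27662 in the parental array. Its log2 differences by this probe set were -0.23 (CisR) and -0.22 (DoxR). Of its 6 probe sets, 5 pointed downwards in the CisR array (-0.82 to 0.41 over the 6), and all 5 above the floor on both arrays did so in the DoxR array (-0.65 to -0.22). PGK1 lies on chromosome X, and its 14 nearest compared genes had a median difference of -0.16 (CisR) and -0.36 (DoxR), so its neighbours also lay below parental. The part of the chromosome in these values was not tested.

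**Figure D3:**
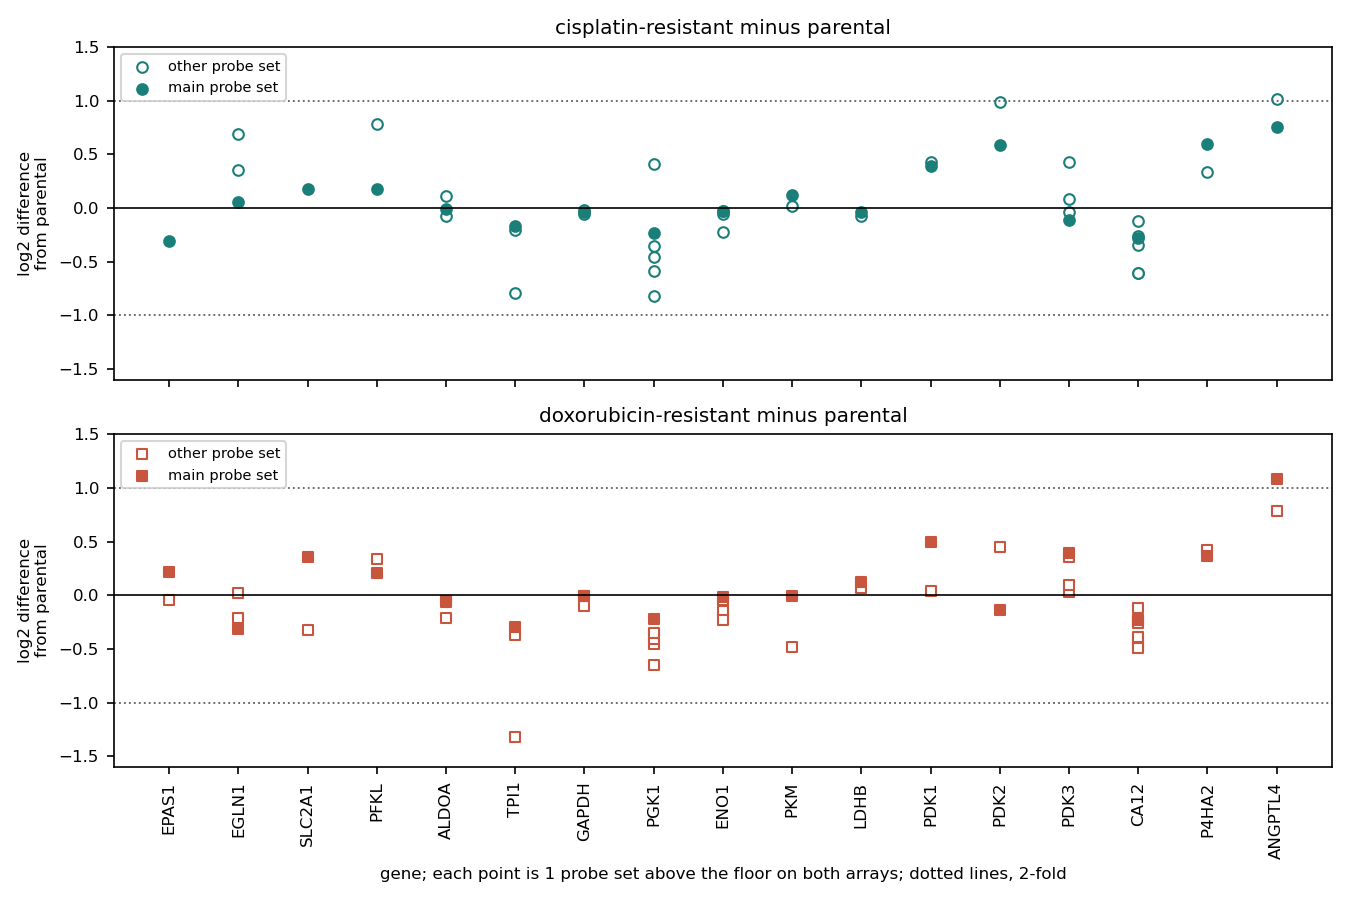
Log2 difference from parental for every probe set above the floor on both arrays, for the 17 genes with at least 2 such probe sets in either comparison (filled, main probe set; open, others; dotted lines, 2-fold). The points of ANGPTL4, P4HA2 and PDK1 lie above 0 in both panels, those of CA12, TPI1 and ENO1 lie below 0 in both, and those of SLC2A1 and EGLN1 straddle 0 in the DoxR array.

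The lactate dehydrogenases were close to parental. LDHA, the isoform that favours lactate formation and a classical HIF target, had 24975 in the CisR, 25130 in the DoxR and 22891 in the parental array, 1.09-fold (CisR) and 1.10-fold (DoxR) above parental. LDHB, the heart isoform, had 30912 (CisR), 34647 (DoxR) and 31760 (parental), with log2 differences of -0.04 (CisR) and 0.13 (DoxR).

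Pyruvate dehydrogenase kinases phosphorylate and switch off the complex that feeds pyruvate into the mitochondrial citric acid cycle, and PDK1 is induced by HIF. PDK1 had 1410 in the CisR, 1515 in the DoxR and 1072 in the parental array, 1.32-fold (CisR) and 1.41-fold (DoxR) above parental, and its other probe set above the floor gave 0.43 (CisR) and 0.04 (DoxR) on the log2 scale. PDK4, the starvation-induced kinase, had 402.0 (CisR), 411.3 (DoxR) and 322.7 (parental), or 1.25-fold (CisR) and 1.28-fold (DoxR) above parental. PDK2 had 246.7 in the DoxR, 405.7 in the CisR and 270.7 in the parental array, and the DoxR minus CisR differences of its probe sets were -0.72 and -0.54, both under 2-fold. The 14 nearest compared genes of PDK2 had a median of -0.51 in that comparison, with 13 below 0, and with it subtracted PDK2 lay at -0.21. PDK2 gave -0.13 and 0.45 against parental in the DoxR array by its 2 probe sets, so its direction there is not settled. PDK3 lay at -0.11 in the CisR and 0.39 in the DoxR array by its main probe set. Of its 4 probe sets above the floor on both arrays, 2 lay above and 2 below parental in the CisR array (-0.11 to 0.43). All 4 lay above parental in the DoxR array (0.03 to 0.39). None of the 4 kinases passed 2-fold against parental by its main probe set, beside 5.40% (CisR) and 5.75% (DoxR) of all compared genes. Their median differences were 0.36 (CisR) and 0.37 (DoxR).

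The other hypoxia-responsive genes included several of the larger differences. Over the 9 that were compared, the median log2 difference from parental was 0.25 in the CisR array, with 6 above parental. In the DoxR array it was 0.40, with 7 above parental. For all genes the medians were 0.02 and 0.00, with 6619 of 12699 (CisR) and 6351 of 12599 (DoxR) above parental. ANGPTL4, 1 of the 9, passed 2-fold, in the DoxR array, where 5.75% of all compared genes did.

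ANGPTL4, a secreted inhibitor of lipoprotein lipase that both hypoxia and fatty acid receptors induce, had a signal of 600.3 in the CisR, 755.0 in the DoxR and 356.5 in the parental array. Both sublines were above parental, 1.68-fold in the CisR and 2.12-fold in the DoxR array. Its second probe set had 319.2 (CisR), 271.3 (DoxR) and 158.0 (parental), with log2 differences of 1.01 (CisR) and 0.78 (DoxR). Each subline therefore passed 2-fold by 1 of the 2 probe sets, and the order of the sublines depends on the probe set.

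NDRG1, a stress-responsive protein strongly induced by hypoxia, had 5369 in the CisR, 9967 in the DoxR and 5287 in the parental array by its only probe set. It was 1.89-fold above parental in the DoxR array, just under 2-fold, and 1.02-fold in the CisR array. MXI1, a MAX partner that opposes MYC and is a HIF target, also had its highest signal in the DoxR array, with 1369 (CisR), 2629 (DoxR) and 1661 (parental). It lay 1.58-fold above parental in the DoxR array and 1.21-fold below it in the CisR array.

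ANKRD37, an ankyrin-repeat protein and HIF target, had 685.3 in the CisR, 534.3 in the DoxR and 366.8 in the parental array. Its 1.87-fold difference was the largest of the 37 genes in the CisR array by main probe sets, while second probe sets of ANGPTL4 and PDK2 gave 2.02-fold and 1.99-fold. ANKRD37 lies near the end of chromosome 4, where 13 of its 14 nearest compared genes were above parental in that array, with a median of 0.64, and with this median subtracted the difference was 0.26. The collagen prolyl hydroxylases P4HA1 and P4HA2 lay above parental in both sublines, by 0.35 and 0.60 in the CisR and by 0.21 and 0.37 in the DoxR array.

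ADM, the vasodilator peptide adrenomedullin, had 5131 in the CisR, 5701 in the DoxR and 4325 in the parental array, 1.19-fold (CisR) and 1.32-fold (DoxR) above parental. CA12, a membrane carbonic anhydrase that helps to export acid, had 14123 (CisR), 14599 (DoxR) and 17119 (parental), below parental in both sublines, at -0.28 (CisR) and -0.23 (DoxR). All 6 CA12 probe sets above the floor on both arrays pointed downwards in the CisR array and all 7 did so in the DoxR array. KDM3A, a histone demethylase induced by HIF, lay at -0.51 in the CisR and -0.04 in the DoxR array.

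Of the gluconeogenic enzymes, only PCK2 and FBP1 were above the floor. PCK1 (cytosolic PEPCK) had signals of 1.23 to 1.48, and G6PC1, the glucose-6-phosphatase that releases free glucose from liver, had at most 32.0. PCK2, the mitochondrial PEPCK, which also responds to amino acid shortage through the transcription factor ATF4, had 878.4 in the CisR, 1410 in the DoxR and 669.6 in the parental array. It was 2.11-fold higher in the DoxR array and 1.31-fold above parental in the CisR array. FBP1, which removes the phosphate that phosphofructokinase adds, had 249.7 in the DoxR, 523.2 in the CisR and 314.9 in the parental array. The sublines lay on opposite sides of parental, 1.66-fold above it in the CisR and 1.26-fold below it in the DoxR array, and FBP1 was 2.10-fold lower in the DoxR than in the CisR array. PCK2 and FBP1 were each read by 1 probe set. Of the liver-type members, SLC2A2, PKLR, PCK1 and G6PC1 were at or under the floor in parental cells too. No difference could thus be read in these genes beside the lower liver markers of the CisR array. FBP1, which could be read, lay 1.66-fold above parental in that array.

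ENO2 shares a stretch of chromosome 12 with TPI1, GAPDH and SLC2A3, a neighbourhood chosen after the values were seen. Among the 40 compared genes on each side of ENO2, 77 genes outside the group had a median log2 difference of -0.04 in the CisR and -0.30 in the DoxR array, with 41 and 68 of them below parental. With the median of its 14 nearest neighbours subtracted, ENO2 lay at -0.90 in the DoxR array, under 2-fold, TPI1 at -0.05 and SLC2A3 at -0.42 at most. GAPDH lay at -0.01 in a neighbourhood with a median of -0.42. Whether the stretch contributes to the lower ENO2 signal was not tested.

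**Figure D4:**
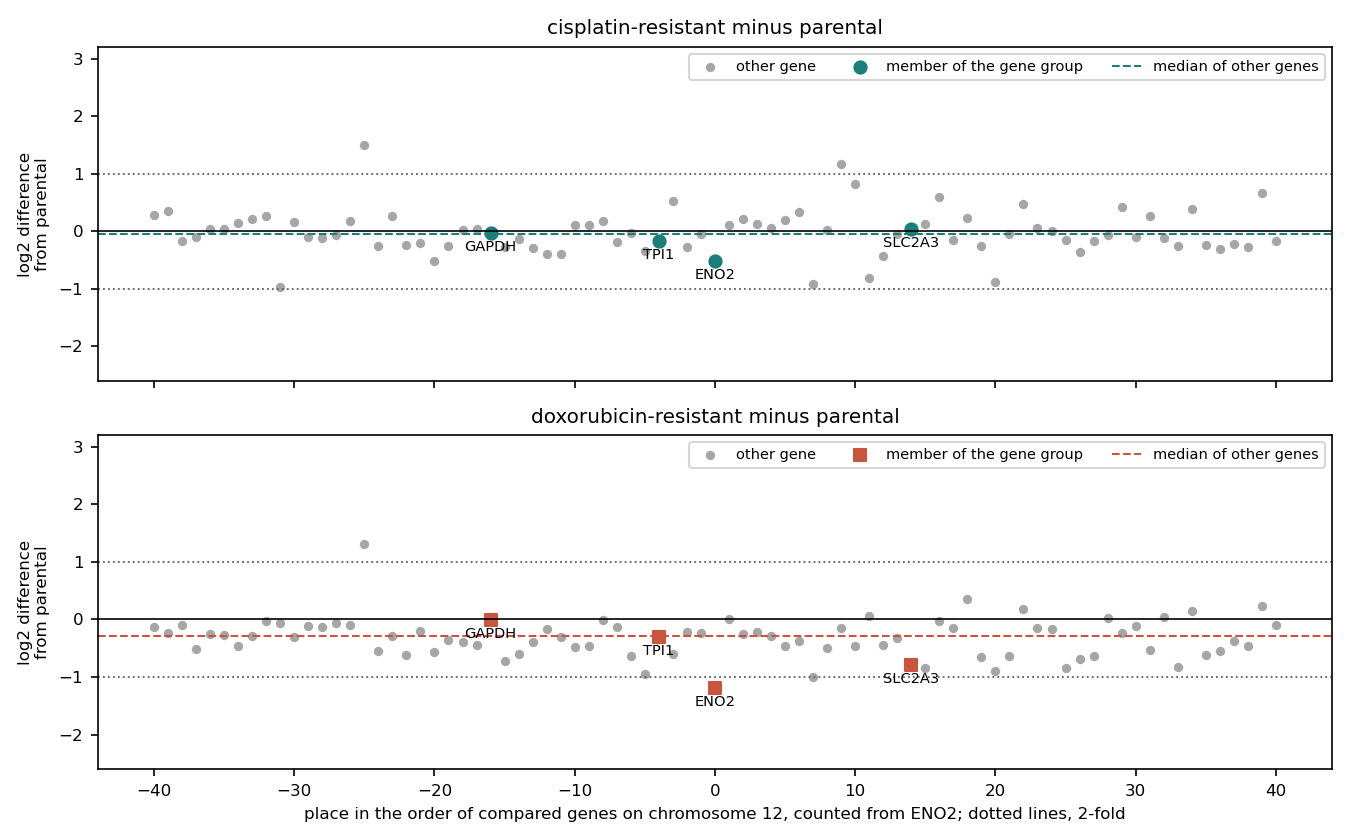
Log2 difference from parental of 81 compared genes in their order on chromosome 12, counted from ENO2 (grey, other genes; coloured, genes of the group; dashed, median of the other genes; dotted, 2-fold). The dashed line lies at -0.04 in the CisR and at -0.30 in the DoxR array, and ENO2 is the coloured point past 2-fold.

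Further genes of the same pathways, from 5 lists of 99 genes in all, were counted in the same way. Of 84 that were compared, 2 were higher and 1 was lower in the CisR array, where 2.82% of all genes were higher and 2.58% lower. In the DoxR array 6 were higher and 1 was lower, where 2.99% of all genes were higher and 2.75% lower. All 10 HIF regulators that were compared stayed under 2-fold in both sublines, where 5.40% (CisR) and 5.75% (DoxR) of all genes passed it. Their medians were 0.00 (CisR) and -0.12 (DoxR). In the DoxR array 8 of the 10 lay below parental, beside 6248 of 12599 compared genes. By its main probe set VHL had 1174 (CisR), 796.2 (DoxR) and 1475 (parental), 1.85-fold below parental in the DoxR array. VHL was named after its value was seen, and its neighbouring genes and any other probe sets are not given here.

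Of the further hypoxia targets, 4 of 35 were higher and 0 lower in the DoxR array, beside 2.99% and 2.75% of all genes, and 0 of 35 passed 2-fold in the CisR array, beside 5.40% of all genes. AK4, a mitochondrial adenylate kinase, had 271.2 in the CisR, 748.9 in the DoxR and 251.6 in the parental array, 2.98-fold higher in the DoxR array. Other AK4 probe sets gave log2 differences of 0.60 to 1.13 in the DoxR array. DDIT4, an inhibitor of mTORC1 signalling that hypoxia and other stresses induce, had 7826 (CisR), 14678 (DoxR) and 5118 (parental), 2.87-fold higher there. The stanniocalcin STC2 had 271.3 (CisR), 953.5 (DoxR) and 371.1 (parental) and was 2.57-fold higher there. A second STC2 probe set gave a log2 difference of 0.96 in the DoxR array, under 2-fold. The lipoprotein receptor VLDLR had 238.6 (CisR), 745.4 (DoxR) and 349.4 (parental) and was 2.13-fold higher there. The list's median was 0.08 in that array and 0.10 in the CisR array.

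Between the sublines, 4 of these 35 genes were higher in the DoxR than in the CisR array and none lower, where 3.05% of all genes were higher and 3.32% lower. They were AK4, STC2, VLDLR and VEGFA, the angiogenic growth factor, which had 4526 in the DoxR, 2031 in the CisR and 2407 in the parental array. VEGFA was 2.23-fold higher in the DoxR than in the CisR array and 1.88-fold above parental. All 4 of its probe sets were higher in the DoxR array than in either other array, by 0.37 to 0.91 against parental.

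Among other carriers and isozymes, SLC2A6, a lysosomal hexose transporter, had 474.3 in the CisR, 462.6 in the DoxR and 210.3 in the parental array. It was 2.26-fold (CisR) and 2.20-fold (DoxR) higher than in parental. SLC37A4, which carries glucose-6-phosphate into the endoplasmic reticulum, had 1162 (CisR), 1761 (DoxR) and 876.1 (parental) and was 2.01-fold higher in the DoxR array. A second SLC37A4 probe set gave log2 differences of -0.08 (CisR) and 0.74 (DoxR), the latter under 2-fold. BSG (basigin), the chaperone that brings the lactate carriers to the membrane, had 1528 (CisR), 2891 (DoxR) and 3204 (parental) and was 2.10-fold lower in the CisR array by its only probe set. SLC2A10, with 194.3 (CisR), 2.82 (DoxR) and 94.0 (parental), was 2.07-fold higher in the CisR array from a parental signal near the floor.

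At the entry of pyruvate into mitochondria, the 9 compared genes had medians of 0.41 in the CisR and 0.40 in the DoxR array. Over all genes the medians were 0.02 and 0.00, and both comparisons share the parental array. Apart from PDP1, only main probe sets are given for these genes. Of the complex subunits, PDHA1, PDHB, PDHX and DLD lay 0.41 to 0.88 above parental in the CisR and 0.47 to 0.66 above it in the DoxR array. All were under 2-fold, and DLAT lay at 0.03 (CisR) and 0.21 (DoxR). Of the mitochondrial pyruvate carrier genes, MPC1 lay at 0.68 (CisR) and 0.40 (DoxR). MPC2 lay at 0.25 (CisR) and, below parental, at -0.63 (DoxR). PDP1, the phosphatase that switches the complex back on against the PDK enzymes, had 1645 in the CisR, 1157 in the DoxR and 2527 in the parental array. It was 2.18-fold lower in the DoxR array, and its second probe set gave -0.62 (CisR) and -1.59 (DoxR). PDPR, of the same list, lay at -0.19 (CisR) and 0.30 (DoxR). None of the 8 pentose phosphate pathway genes compared passed 2-fold against parental, beside 5.40% (CisR) and 5.75% (DoxR) of all compared genes. Their medians were 0.12 (CisR) and 0.01 (DoxR).

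**Figure D5:**
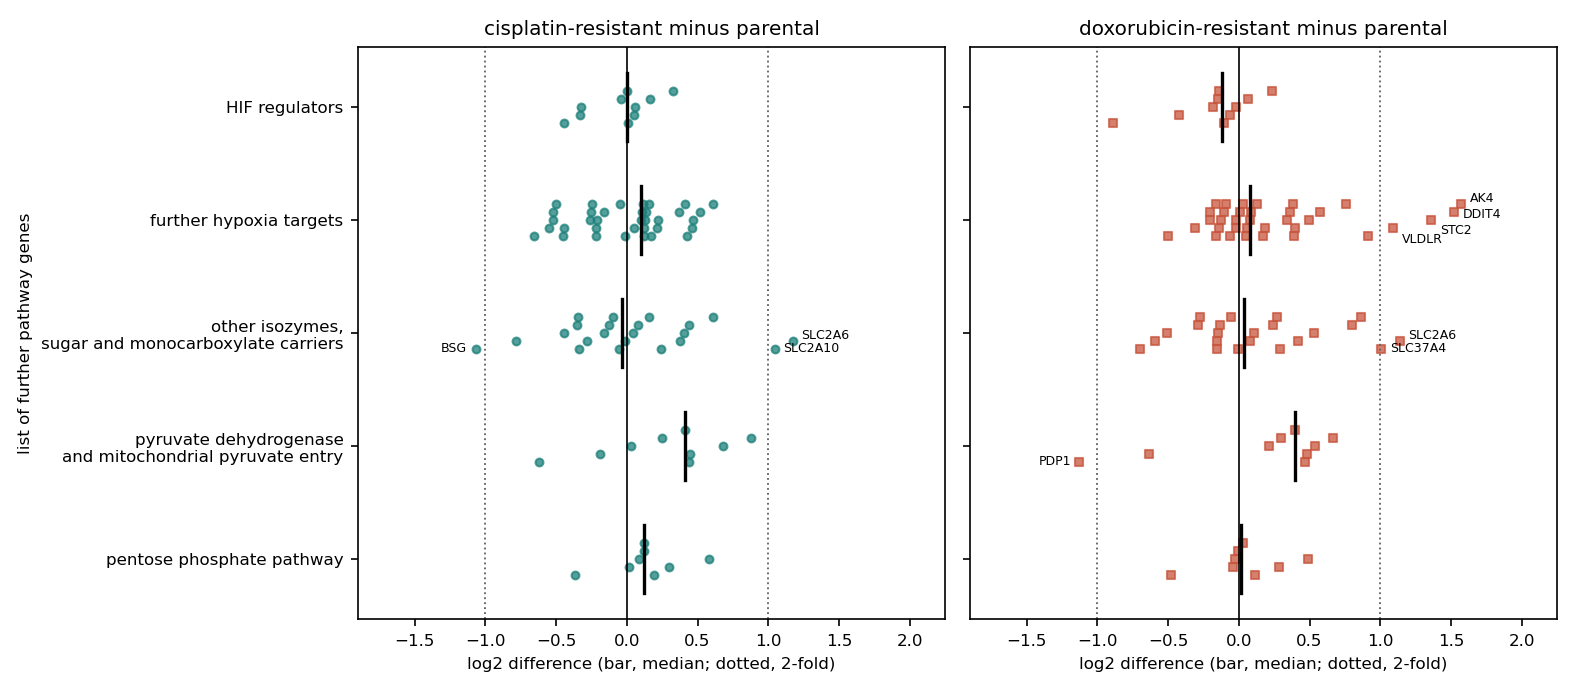
Log2 difference from parental of the compared genes of 5 further pathway lists in the CisR and DoxR arrays (points, genes; bars, medians; dotted lines, 2-fold; genes past 2-fold named). AK4, DDIT4, STC2 and VLDLR pass 2-fold in the DoxR panel, no gene of their list does in the CisR panel, and the bars of the pyruvate dehydrogenase list lie at 0.41 (CisR) and 0.40 (DoxR).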

How the data were processed

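Per the labels' protocols, total RNA was extracted with Trizol, amplified into biotin-labelled cRNA and hybridised to Affymetrix U133 Plus 2.0 arrays, 1 for each of 3 lines. The deposited values are a linear intensity (MAS5 signal, per the submitters' processing notes; version not given in the sources used here) for 54675 probe sets, and all 3 value columns were used. Subtraction of mismatch signal by MAS5 makes low values noisy.

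Of these probe sets, 41091 had 1 gene symbol in the platform annotation (99.9% matched by Entrez identifier to a RefSeq table of GRCh38.p14), 1801 had several symbols and were not used, and 62 were control sets and stood for no gene. The probe set with the highest mean signal over the 3 arrays stood for its gene. Values under the pooled median (76.9) were raised to it before log2, and a gene was compared where at least 1 of the 2 values exceeded it. Differences are subline minus parental, or DoxR minus CisR, called at 2-fold. With 1 array per line no p-value, SD or SE was computed. Samples were grouped by their labels.

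Values in every array are given for members past 2-fold, for a fixed list of further members, and for ANKRD37, MXI1, PDK2 and TPI1, chosen for their differences. Non-members are named where past 2-fold. PDHA1, PDHB, PDHX, DLD, DLAT, PDPR, MPC1, MPC2, VHL and VEGFA against parental were chosen after their values were seen. Members, lists and named genes were chosen with earlier results of these data known. Promoters are from RefSeq (GRCh38.p14). Steps were run in Python 3.11.15 with pandas 2.3.3 and tested on simulated data. The alternatives were another floor, other probe sets, other scaling, subtraction of neighbouring genes and a 1.5-fold call.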

Additional observations from a re-analysis of the deposited data

Results flagged for a closer look

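FBP1, the fructose bisphosphatase of gluconeogenesis, was past 2-fold between the sublines, which lay on opposite sides of parental. Its signal was 249.7 in the DoxR and 523.2 in the CisR array, a log2 difference of -1.07, with 314.9 in the parental array. The difference was not tested, since each line has 1 array, and FBP1 has 1 probe set. Its neighbouring genes had a median of 0.08 in the same comparison.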

How the results depend on the processing

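The count of genes past 2-fold depended on how low signals were treated. With the floor at the 25th percentile of all values (19.4) it was 1 in the CisR array against parental, 5 in the DoxR array against parental and 3 between the sublines, and with no floor it was 3, 5 and 6. The additional genes were EGLN3, HK2, PKLR, SLC2A2 and SLC2A3, each with at least 1 signal under 76.9. Of all genes, 11.8% to 12.8% then passed 2-fold with the lower floor and 20.3% to 21.4% with none. With the floor at the 75th percentile the counts were 0, 2 and 0, beside 2.76%, 3.13% and 3.82% of all genes. FBP1 then lay at -0.25 between the sublines. At 1.5-fold in place of 2-fold the counts were 5, 6 and 7, beside 17.6%, 17.7% and 19.1% of all genes. With the median of neighbouring genes subtracted, 2 genes (FBP1 and NDRG1, at 1.01) passed between the sublines, and ENO2 did not pass in the DoxR array (-0.90). ANGPTL4 lay at 0.78 with the higher floor and 0.93 with the median over probe sets, both under 2-fold. PCK2 has 1 probe set with signals above every floor used, so other floors and probe sets could not move it. With other scaling and with neighbouring genes subtracted, it stayed past 2-fold in the DoxR array (1.05 to 1.07). Without _x_at and _s_at probe sets 23 of the 37 genes could be compared, TPI1 was past 2-fold lower in the DoxR array (-1.32) and ANGPTL4 could not be read. Median differences moved by under 0.1 in every alternative. Including control probe sets for GAPDH, an alternative added after the data were seen, changed no count. No paired analysis was possible because each line has 1 array. No library could be left out for the same reason. Signals near the floor limit what can be said of HK2, SLC2A3 and the liver isozymes.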
